A study of Homo sapiens with 4 samples.

Results

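The insulin-like growth factor binding proteins IGFBP1 to IGFBP7 were followed through 4 Hi-C maps of IMR90 cells, an established line of human lung fibroblasts. Each gene was placed by its hg19 start of transcription in the deposited list of bins of about 200 kb, and the 5 bins on each side were added. The 7 genes fell into 5 gene bins, because IGFBP1 and IGFBP3 share a bin on chromosome 7 and IGFBP2 and IGFBP5 share a bin on chromosome 2. The windows hold 55 of the 14444 bins in the list. Hi-C joins the cut ends of DNA stretches that touch in fixed nuclei and reads the joints by sequencing.

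All cells carried the pLNCX2 ER:HRAS G12V construct, a RAS oncoprotein that is switched on by 4-hydroxytamoxifen (4OHT). Grow cells received no 4OHT, and OIS cells, in oncogene-induced senescence, received 100 nM 4OHT for 6 days. Grow-shA1 and OIS-shA1 cells also expressed a short hairpin RNA against HMGA1, a chromatin protein that binds AT-rich DNA. Grow-shA1 and OIS-shA1 had 2 samples each, which make up the 4 samples here, and each pair was pooled into 1 map. The other two maps, without the hairpin, were taken over from previous Hi-C work of that laboratory and belong to no sample here, so a comparison of a map with shA1 against one without it also compares the data sets, and the hairpin and the data set cannot be told apart there. With 1 map per condition in 1 cell line there was no spread between replicates and no test between conditions.

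The binding proteins are secreted. They hold IGF1 and IGF2 in the extracellular fluid and control how much of either growth factor reaches the IGF1 receptor. IGFBP3 carries most circulating IGF in a complex with the acid-labile subunit IGFALS. IGFBP4 restrains IGF until PAPPA cleaves it, and IGFBP6 prefers IGF2. IGFBP7 binds IGFs weakly and also binds insulin. Several of the family, IGFBP3 and IGFBP7 among them, are known among the proteins that senescent fibroblasts secrete. In the nucleus, active chromatin (compartment A) mixes mostly with A and inactive chromatin (compartment B) mostly with B, and a border between them appears in Hi-C as a bin across which few contacts are made.

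In hg19, IGFBP1 (ENSG00000146678, plus strand) lies at chr7:45927959-45933259 and IGFBP3 (ENSG00000146674, minus strand) at chr7:45951844-45961473, both in the bin chr7:45801139-46001247. IGFBP2 (ENSG00000115457, plus strand) lies at chr2:217497551-217529159 and IGFBP5 (ENSG00000115461, minus strand) at chr2:217536828-217560272, both in the bin chr2:217397122-217600590. IGFBP6 (ENSG00000167779, plus strand) lies at chr12:53491220-53496129 in the bin chr12:53400872-53604273. IGFBP7 (ENSG00000163453, minus strand) lies at chr4:57896939-57976551 in the bin chr4:57800117-58003017. IGFBP4 (ENSG00000141753, plus strand) lies at chr17:38599702-38613977 and starts 1025 bp before the right edge of its bin chr17:38399271-38600727, so that 7.19% of the gene lies inside the bin. The other 6 genes lie wholly inside theirs. Every annotated protein-coding transcript of the 7 genes starts in the bin given.

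The bins are cut at HindIII sites, and these sites set which side of a bin a gene falls on. At all 3970 inner bin edges of the 5 chromosomes the genome (GRCh37, plus strand) holds AAGCTT at the edge. The 30 bases around 3 edges are printed, with the HindIII site in capitals: both edges of the IGFBP7 bin, whose right edge faces a region in compartment B without protein-coding gene starts, and the right edge of the IGFBP4 bin, which cuts that gene. The runs lie at chr4:57800104-57800133, chr4:58003005-58003034 and chr17:38600715-38600744.
IGFBP7 bin, left edge: cgtgtgggtggaAAGCTTgttaaaaatctg
IGFBP7 bin, right edge: aaaatgttgagtAAGCTTatcctacattcc
IGFBP4 bin, right edge: agggagtggggaAAGCTTtctgttcctgat

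The contact score used here is the authors' value for a pair of bins on 1 chromosome, relative to the mean at the same distance. It behaves like a logarithm of unstated base, so differences are in score units and are not folds. Local contact is a bin's mean score with bins up to 2 Mb away, and distal contact its mean with the rest of its chromosome, also split into partners that are A or B in Grow. The compartment score is positive in A and negative in B. Insulation is the mean of the 25 pairs that join the 5 bins left of a bin to the 5 bins right of it, minus the mean of the 20 pairs within either side, so that a lower value means a stronger separation. A change of at least 0.2 was called a rise or a fall. Of 14310 bins on 22 autosomes and X, 13567 were kept, all 55 window bins among them. The maps listed between 4032178 (OIS-shA1) and 4631794 pairs (Grow), and the share of distal pairs of kept bins with a value ran from 78.7% in OIS-shA1 to 89.5% in Grow. For the gene bins, all local pairs had a value in all 4 maps. Of their distal pairs with B bins, between 14.2% (IGFBP6) and 59.6% (IGFBP7) had a value in all 4 maps, and the distal means rest on those pairs.

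All 5 gene bins were in compartment A in every map, and 5699 of the 13567 kept bins were A in Grow. The sign of the score is turned toward protein-coding gene starts, in which the gene bins are rich. Their neighbourhoods differed widely. Local contact ordered the genes as IGFBP1/IGFBP3, IGFBP2/IGFBP5, IGFBP4, then IGFBP6 and IGFBP7. The IGFBP1/IGFBP3 bin had local scores of 0.929 in Grow, 0.937 in Grow-shA1, 1.14 in OIS and 1.07 in OIS-shA1, above 95% of the chromosome 7 bins in Grow. The IGFBP2/IGFBP5 bin had 0.602, 0.451, 0.415 and 0.346 in the same order of maps. The IGFBP4 bin had 0.264, 0.216, 0.117 and 0.264. At the low end, the IGFBP6 bin had -1.39, -1.44, -1.47 and -1.51, and the IGFBP7 bin -1.42, -1.4, -1.56 and -1.27. The ranges over the 4 maps did not overlap between the upper 3 bins, and those of IGFBP6 and IGFBP7 did. The 4 maps are different conditions, so these ranges are no measure of error. The order is one of scores, and places on the own chromosome differed from it. In Grow IGFBP2/IGFBP5 stood at percentile 71.8 of chromosome 2 and IGFBP4 at 75.7 of chromosome 17. In OIS they stood at 75.6 and 66.8. In Grow the IGFBP7 bin was at percentile 0.394 of chromosome 4 for local contact. It joined distal A bins more than any other gene bin did in 3 of the 4 maps, with 0.443 in Grow and 0.581 in OIS, at percentiles 96.2 and 98.2 of chromosome 4; in Grow-shA1 the IGFBP2/IGFBP5 bin was higher (0.363 against 0.3).

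**Figure D1:**
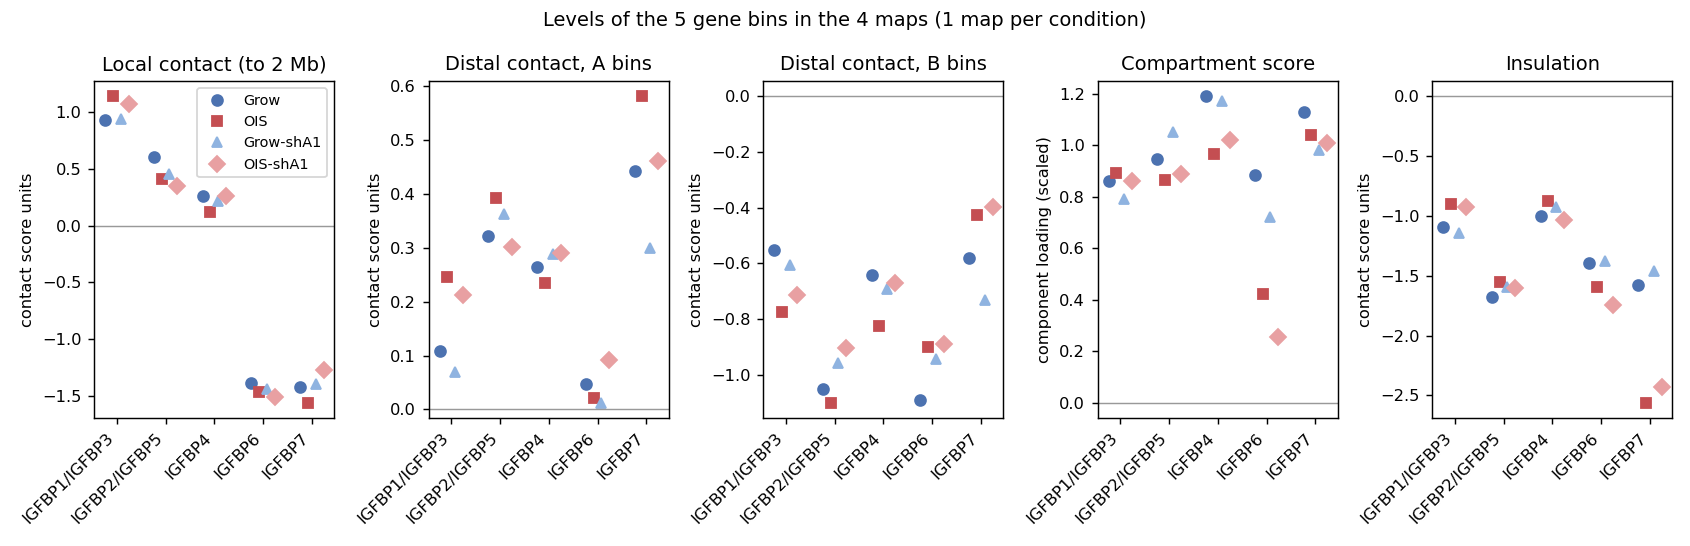
Local contact, distal contact with A bins and with B bins, compartment score and insulation of the 5 gene bins (x axis) in the 4 maps; y axes are contact score units, or the scaled component loading for the compartment score. Each point is 1 map, with no error bar because there is 1 map per condition. The IGFBP7 bin drops in insulation to -2.56 in OIS and -2.43 in OIS-shA1, and the IGFBP6 bin in compartment score to 0.422 and 0.254.

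The clearest change of the family lay around IGFBP7, where the separation between the left side with coding genes and the right side without them grew in senescence. Insulation at the IGFBP7 bin was -1.58 in Grow, -1.46 in Grow-shA1, -2.56 in OIS and -2.43 in OIS-shA1. Both OIS maps lay below both Grow maps. The change was -0.983 in OIS minus Grow, with 871 of the 875 measured chromosome 4 bins higher, and -0.97 in OIS-shA1 minus Grow-shA1, again with 871 higher. Over the whole genome the bin was the 103rd and the 87th lowest of 13018. The difference between both changes was 0.0131. Insulation called falls at 1 of the 5 gene bins in OIS minus Grow, against 20.8% of all bins, so the size at IGFBP7, and not the count, stands out.

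The IGFBP7 bin also holds the starts of POLR2B, a subunit of RNA polymerase II, and NOA1, a mitochondrial GTPase. The 5 bins to its left hold 11 protein-coding gene starts, those of REST, a repressor of neuronal genes, HOPX, SPINK2, the purine synthesis genes PPAT and PAICS, SRP72, CEP135 and 4 others. The 5 bins to its right hold 0 protein-coding starts. In Grow the compartment score was 1.04 in the bin left of the gene bin, 1.13 in the gene bin and -0.727 in the bin right of it. The gene bin thus was the last A bin before a B region, and in OIS the same 3 bins read 0.953, 1.04 and -0.421.

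All 25 pairs across the IGFBP7 bin had lower scores in OIS than in Grow, and all 25 in OIS-shA1 than in Grow-shA1. Their mean was -1.6 in Grow and -2.43 in OIS, and -1.43 in Grow-shA1 and -2.35 in OIS-shA1. The largest decrease in OIS minus Grow, -2.1, was between the bin that holds REST and SPINK2 and the bin 5 to the right of the gene bin. The smallest was -0.207. Within the left side the mean of 10 pairs went from -0.085 to 0.255 without shA1, with all 10 pairs higher, and from -0.0569 to -0.0772 with shA1, with 6 of 10 higher. Within the right side it went from 0.0472 to 0.00422 without shA1 and from 0.126 to 0.238 with it, where 9 of 10 pairs were higher. The pairs across thus decreased in both comparisons. The difference between the changes within the left side was not tested.

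**Figure D2:**
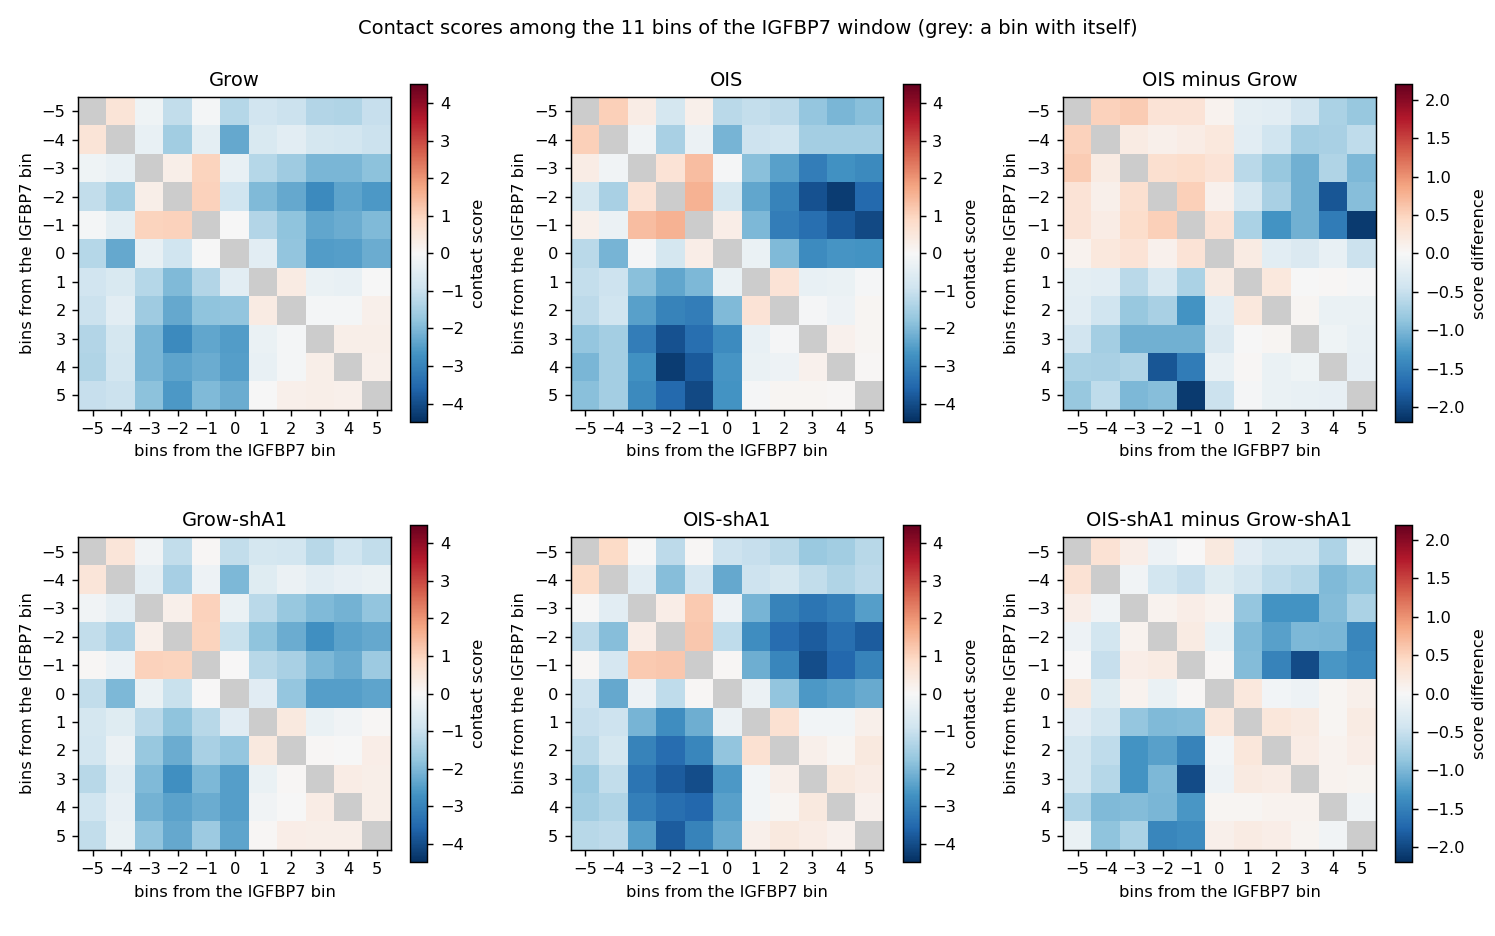
Contact scores between the 11 bins of the IGFBP7 window in the 4 maps, and 2 difference maps, OIS less Grow and the same with shA1; both axes count bins of about 200 kb from the IGFBP7 bin, and colour is the score or its difference. The off-diagonal block that joins bins left of the gene to bins right of it is lower in both OIS maps, with means of -2.43 and -2.35 against -1.6 and -1.43.

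The lowest insulation of the window was 1 bin to the right of the gene bin in all 4 maps, with -1.8 in Grow and -2.8 in OIS, and -1.68 in Grow-shA1 and -2.58 in OIS-shA1. Its changes were -1 without and -0.895 with shA1. The bin to the left of the gene bin changed by -0.603 and -0.613. In a comparison added after the data were seen, IGFBP7 was set beside the 303 chromosome 4 bins whose left and right neighbours have opposite compartments in Grow. Their median change was -0.128 without and -0.116 with shA1, and 3 of the 303 lay below the IGFBP7 bin in either comparison. Over all 4435 such bins 95 and 80 lay below it. Limiting scores to percentiles 1 to 99 gave -0.624 and -0.509, and dividing them by the SD at the same distance gave -0.651 and -0.649, all past the call.

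**Figure D3:**
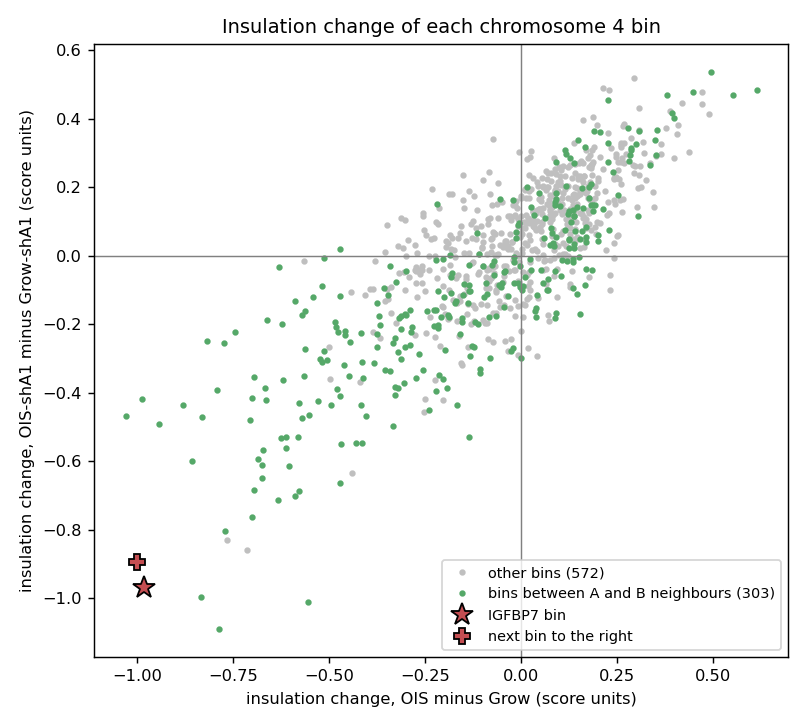
Insulation change of each of 875 chromosome 4 bins in OIS minus Grow (x axis) and in OIS-shA1 minus Grow-shA1 (y axis), in score units; green points are the 303 bins between A and B neighbours, the star is the IGFBP7 bin and the plus the bin to its right. The IGFBP7 bin lies at -0.983 and -0.97, at the low end of both axes.

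**Figure D4:**
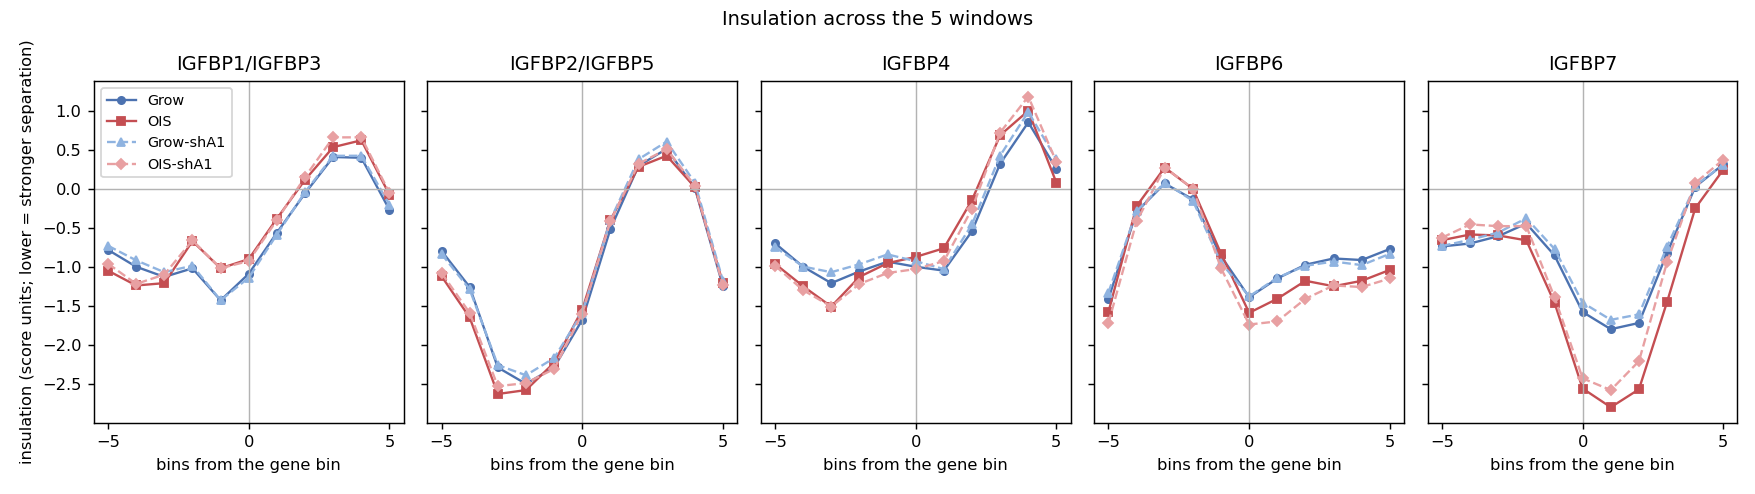
Insulation (y axis, score units, lower for stronger separation) of each bin in the 5 windows, by distance in bins from the gene bin (x axis), in the 4 maps. Grow and OIS lines part most in the IGFBP7 window, where the bin right of the gene reaches -1.8 in Grow and -2.8 in OIS.

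The mean of all pairs among the 11 bins of the IGFBP7 window was -0.992 in Grow, -0.891 in Grow-shA1, -1.32 in OIS and -1.29 in OIS-shA1. It fell by 0.325 in OIS minus Grow, where falls were called in 40.1% of all bins, and by 0.401 in OIS-shA1 minus Grow-shA1, where 29.6% of all bins were called as falls. IGFBP7 was the fall among the 5 gene bins in each comparison. Without shA1 the window of IGFBP7 stood at percentile 35.1 of its chromosome, within the ordinary range, and with shA1 at 3.36. The first value was -0.175 with scores limited to percentiles 1 to 99 and -0.145 with scores divided by the SD at the same distance, both short of the call.

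Distal contact of the IGFBP7 bin was -0.0703 in Grow and 0.0751 in OIS, and -0.218 in Grow-shA1 and 0.03 in OIS-shA1. The OIS maps were thus higher in both comparisons, by 0.145 and by 0.248, with 37 and 1 of 898 chromosome 4 bins above it. The second difference was the 1 distal rise among the 5 gene bins, against 1.31% of all bins. Contact with distal B bins was -0.58 in Grow and -0.427 in OIS, and -0.732 in Grow-shA1 and -0.398 in OIS-shA1. The difference with shA1, 0.334, was the 1 rise among the gene bins, against 6.21% of all bins, and 9 chromosome 4 bins were higher. Averaged over 3 bins the 2 called rises were 0.122 and 0.0968, short of the call. With unlisted pairs as 0 the distal rise was 0.179, also short of it.

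Local contact of the IGFBP7 bin changed by -0.142 in OIS minus Grow and by 0.127 in OIS-shA1 minus Grow-shA1. OIS-shA1 minus OIS was 0.285, the 1 local rise among the 5 gene bins against 18.8% of all bins. The call was lost in 4 of 7 alternatives, with 0.115 to 5 Mb, 0.111 averaged over 3 bins, 0.188 with scores limited to percentiles 1 to 99 and 0.199 with scores divided by the SD at the same distance. That comparison sets maps of different data sets side by side.

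In senescence the IGFBP6 bin and its nearest A neighbours moved toward the A/B midline, and the B bins of its window moved up toward it or across it. Its compartment score was 0.884 in Grow and 0.422 in OIS, and 0.721 in Grow-shA1 and 0.254 in OIS-shA1. Both OIS maps lay below both Grow maps. The falls of 0.462 and 0.467 stood at percentiles 2.89 and 3.51 of chromosome 12, and at 6.5 and 8.46 among its A bins. They ranged from -0.504 to -0.342 over the alternatives, all of which kept unlisted pairs at 0 in this score. Of the distal pairs of the IGFBP6 bin with B bins, 61.7% were listed in Grow and 39.6% in OIS. With shA1 the shares were 50.9% and 33.8%. How far these shares affect the compartment score was not tested. With IGFBP4, described further on, the gene bins gave 2 compartment falls of 5 in OIS minus Grow, against 19.1% of all bins, and IGFBP6 gave 1 of 5 with shA1, against 16.9%.

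The IGFBP6 window holds 69 protein-coding gene starts, with a cluster of type II keratin genes to the left and HOXC genes to the right. Keratins are the intermediate filament proteins of epithelia, and HOXC genes are homeobox factors that pattern the body axis. The bin 3 to the left of the gene bin, which holds KRT5 and KRT6A, went from -0.345 in Grow to 0.376 in OIS and from -0.515 in Grow-shA1 to 0.42 in OIS-shA1. The bin 2 to the left, which holds KRT1, went from -0.248 to 0.276 and from -0.497 to 0.289. The bin 4 to the right, which holds HOXC9 to HOXC13 starts, read -0.776 in Grow and -0.14 in OIS, still B. The A bin directly right of the gene bin, which holds RARG and SP1, went from 0.934 to 0.49 and, with shA1, from 0.816 to 0.387. In all, 7 of 11 bins were A in Grow and in Grow-shA1, and 10 of 11 in OIS and in OIS-shA1. The median score over the kept bins of chromosome 12 was also higher in the OIS maps. It was -0.57 in Grow and -0.0279 in OIS, and -0.573 and -0.0418 with shA1. The median change per bin was 0.00403 without and 0.0113 with shA1. Compartment rises of at least 0.2 were called in 30.2% of all bins in OIS minus Grow, and in 27.5% with shA1. The genes of IGFBP6's own bin, TNS2, ITGB7, SOAT2, SPRYD3, CSAD and ZNF740, share its value.

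**Figure D5:**
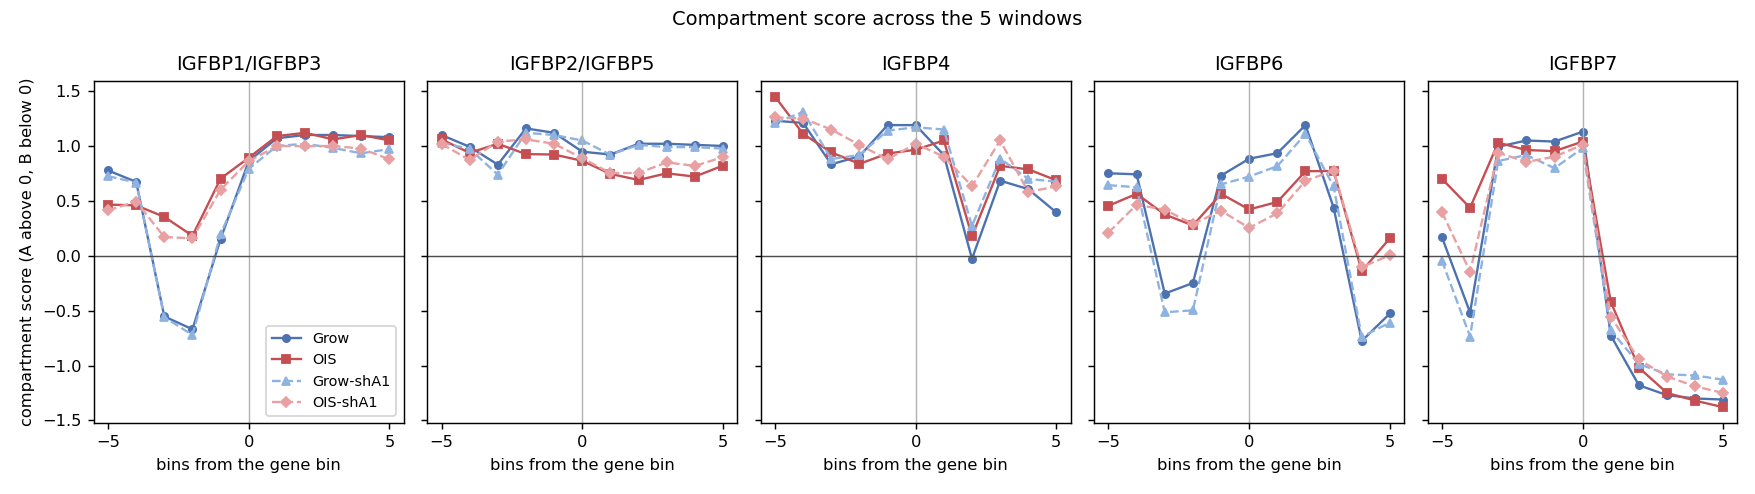
Compartment score (y axis, A above 0 and B below 0) of each bin in the 5 windows, by distance in bins from the gene bin (x axis), in the 4 maps. Bins 2 and 3 to the left of IGFBP6 and of IGFBP1/IGFBP3 cross from B to A in both OIS maps, and the IGFBP6 bin itself drops from 0.884 to 0.422. The median scores of the chromosomes of IGFBP6 and of IGFBP1/IGFBP3 are also higher in the OIS maps.

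Mean contacts within either side of IGFBP6 increased in both comparisons, while the mean across it changed by 0.0894 without shA1 and by -0.162 with it. Insulation was -1.39 in Grow and -1.59 in OIS, and -1.38 in Grow-shA1 and -1.74 in OIS-shA1. The change was -0.2 without shA1, just short of the call before rounding, and -0.364 with it. With IGFBP7 these were 2 insulation falls of 5 in OIS-shA1 minus Grow-shA1, against 20.6% of all bins. Within the left side, which holds the keratin genes, all 10 pairs had higher scores in OIS than in Grow, with means of 1.05 and 0.673, and all 10 in OIS-shA1 than in Grow-shA1, with 0.912 and 0.609. Within the right side the mean went from -1.1 to -0.896 without shA1, with 7 of 10 pairs higher. With shA1 it went from -1.07 to -0.966, with 6 of 10 higher. The 25 pairs across the bin had a mean of -1.6 in Grow and -1.51 in OIS, and of -1.61 in Grow-shA1 and -1.77 in OIS-shA1. The lowest pair across the gene bin joined KRT1's bin to a bin on the right and read -3.51 in Grow and -4.04 in OIS. With 3 bins on each side the insulation changes were -0.598 and -0.597. The score of the gene bin with the first HOXC bin, 4 bins to the right, was -3.22 in Grow and -3.74 in OIS, and -2.9 in Grow-shA1 and -3.69 in OIS-shA1, so both OIS maps were the lower. The window mean was 0.202 lower in OIS-shA1 (-1.06) than in OIS (-0.854), the 1 window fall among the 5 in that comparison, against 18.6% of all bins, and the call was lost in 4 of 6 alternatives, with differences from -0.183 to -0.127. Distal contact differed by 0.0223 and 0.073 over the pairs that all maps list, and by 0.216 and 0.251 over all pairs listed in each map. Contact with distal B bins changed by 0.193 in OIS minus Grow, percentile 95.6 of chromosome 12, and by 0.0535 with shA1, percentile 78.7. Averaged over 3 bins the first was 0.0458. It was 0.149 higher in Grow-shA1 than in Grow, with 4 of 641 chromosome 12 bins higher. These contacts with B bins rest on 14.2% of the pairs.

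Around IGFBP1 and IGFBP3 contacts within the window were higher in both OIS maps. The window mean was -0.0557 in Grow, -0.0683 in Grow-shA1, 0.211 in OIS and 0.0624 in OIS-shA1. The rise of 0.267 in OIS minus Grow, percentile 94 of chromosome 7, was the 1 window rise among the gene bins, against 13% of all bins, and with shA1 the difference was 0.131, percentile 90.3. Local contact rose by 0.211 in OIS minus Grow, the 1 local rise of 5 against 13.3% of all bins, and differed by 0.128 with shA1. That rise depended on distance, since to 5 Mb the differences were -0.126 without and -0.239 with shA1, and it was 0.0925 with scores divided by the SD at the same distance.

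The increase lay to the left, toward ADCY1, an adenylyl cyclase gene, and RAMP3. The 5 pairs of the gene bin with its left neighbours were all higher in OIS, with a mean of 0.353 against -0.0649 in Grow, and 4 of 5 were higher with shA1. Of the 25 pairs across the bin, 23 were higher in OIS than in Grow and 21 in OIS-shA1 than in Grow-shA1. The pairs with the 5 right-hand bins, which hold 0 protein-coding starts and are in A, were high in every map, at 1.92 in Grow and 1.95 in OIS, and at 1.86 and 1.76 in the maps with shA1. Insulation was -1.09 in Grow and -0.902 in OIS, a difference of 0.19, and -1.14 and -0.926 with shA1. The latter, 0.213, was the 1 insulation rise of 5, against 21.1% of all bins. The bins 3 and 2 to the left went from -0.553 and -0.67 in Grow to 0.354 and 0.182 in OIS in compartment score, and from -0.56 and -0.722 in Grow-shA1 to 0.17 and 0.159 in OIS-shA1. The median compartment score over the kept bins of chromosome 7 also went up, from -0.592 in Grow to -0.102 in OIS. With shA1 it went from -0.654 to -0.319.

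Contact of the IGFBP1/IGFBP3 bin with distal B bins was -0.552 in Grow, -0.604 in Grow-shA1, -0.774 in OIS and -0.715 in OIS-shA1. The difference of -0.223 in OIS minus Grow was the 1 fall of the 5 gene bins, near the background of 27% of all bins. It did not last: with all pairs listed in each map it was -0.078, and with unlisted pairs as 0 it was 0.0563.

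The IGFBP2/IGFBP5 bin had no called change in any of the 4 comparisons. All 11 bins of its window were A in every map, with compartment scores from 0.69 to 1.16. Its bin had 0.948 in Grow, 1.05 in Grow-shA1, 0.865 in OIS and 0.889 in OIS-shA1. Its largest difference in OIS minus Grow was -0.188, in local contact. The gene bin contacted the 5 bins to its right, where TNP1 is the only protein-coding start, with a mean score of 2.37 in Grow and 2.29 in OIS, and the 5 to its left, which hold XRCC5, SMARCAL1 and RPL37A, with 0.196 and 0.165. This asymmetry held with shA1, at 2.18 and 2.19 against 0.0668 and -0.02. Insulation was lower inside the left part of the window than at the gene bin: 2 bins to the left it was -2.5 in Grow and -2.58 in OIS, against -1.68 and -1.55.

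The most extreme percentiles of IGFBP2 and IGFBP5 were between maps with and without shA1. Distal contact was -0.00354 in Grow and 0.0507 in Grow-shA1, a difference of 0.0542, with 2 of 1153 chromosome 2 bins higher where the chromosome median was -0.0513. Averaged over 3 bins it was -0.000251. It was 0.0402 in OIS and 0.0164 in OIS-shA1. Contact with distal B bins was -1.05 in Grow and -0.959 in Grow-shA1, and -1.1 in OIS and -0.903 in OIS-shA1. The latter pair differed by 0.195, with 15 bins of the chromosome higher, against a chromosome median of -0.0796. With unlisted pairs as 0 this was 0.0661. These differences are small in score units and compare data sets as well as conditions.

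IGFBP4 lies in the most gene-dense window, with 88 protein-coding starts that include ERBB2, a receptor tyrosine kinase, and TOP2A and CDC6, which act in DNA replication, and a run of keratin and keratin-associated genes to its right. Its compartment score was 1.19 in Grow and 0.966 in OIS, a fall of 0.221, and 1.17 in Grow-shA1 and 1.02 in OIS-shA1, a difference of -0.151. Averaged over 3 bins the first was -0.118, and from a component per chromosome arm -0.0681. Of the distal pairs of the IGFBP4 bin with B bins, 89.2% were listed in Grow and 52.4% in OIS, and 75.1% and 56.8% with shA1. Unlisted pairs count as 0 in the compartment score, and the effect of these shares was not tested. The bin to the right, which holds most of the gene body, had a difference of 0.128 in OIS minus Grow and -0.245 with shA1. The direction at IGFBP4 thus depends on the bin chosen without shA1, while with shA1 both differences were below 0. Contact with distal B bins was -0.643 in Grow, -0.826 in OIS, -0.693 in Grow-shA1 and -0.669 in OIS-shA1, differences of -0.183 and 0.0242. Insulation was -1 and -0.874 without shA1 and -0.929 and -1.03 with it. The gene bin contacted its right-hand neighbour with scores between 1.69 and 1.76 in the 4 maps.

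Over the 5 gene bins together, no measure changed in 1 direction at all 5 from Grow to OIS, with or without shA1. The median insulation change was 0.13 in OIS minus Grow, where the median over all bins was 0.0203, and ran from -0.983 to 0.19. The median local change was -0.142 against -0.116 over all bins, and the median change of contact with distal B bins -0.0436 against -0.0892. In OIS-shA1 minus OIS, contact with distal B bins was higher at all 5 gene bins, from 0.0088 to 0.195 with a median of 0.059, where 34.9% of all bins were above 0. The gene bins are A bins, and most of all bins are not. Among the A bins of their chromosomes the differences stood at percentiles 76.5 (IGFBP1/IGFBP3), 99 (IGFBP2/IGFBP5), 82.8 (IGFBP4), 63.2 (IGFBP6) and 48.9 (IGFBP7). The A-bin median was itself above 0 on the chromosomes of IGFBP4 (0.0659) and IGFBP7 (0.0327). None of the 5 differences reached 0.2, and under alternatives the sign turned at IGFBP1/IGFBP3 (lowest -0.0133) and at IGFBP7 (lowest -0.0208).

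Each gene bin had distal partner blocks of 5 by 5 bins that moved most in OIS minus Grow. The blocks were picked by that comparison, so that their values in it are a description, and OIS-shA1 minus Grow-shA1 shares no map with it. IGFBP1/IGFBP3 with the block around GLI3, a Hedgehog pathway factor, at chr7:42004542-42997047, 3.4 Mb away, had a mean of -0.81 in Grow and 0.0518 in OIS, and of -0.819 in Grow-shA1 and -0.19 in OIS-shA1. The difference with shA1, 0.629, stood at percentile 98.4 of the 397 blocks of that bin. The block with the largest decrease, chr7:48400450-49397805, was at -0.957 and -2.27 without shA1 and at -0.945 and -2.31 with it. That difference with shA1 was the lowest of all 397 blocks, at percentile 0.126.

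IGFBP2/IGFBP5 gained most with the block at chr2:230798351-231800707, 13.8 Mb away, which holds SP100, SP110 and SP140, genes of nuclear body proteins. The mean was 0.311 in Grow and 1.03 in OIS, and 0.493 and 0.934 with shA1, at percentile 95.2 of 466 blocks. For IGFBP4 the block was at chr17:59999974-60999428, with TLK2, MED13 and MRC2, at 0.034 and 0.855 without shA1 and 0.156 and 0.681 with it, at percentile 98.1 of 235 blocks. For IGFBP6 it was at chr12:92400034-93400302, with BTG1 and EEA1, at -0.353 and 0.139 and at -0.241 and 0.0925, percentile 91.1 of 319 blocks. IGFBP7 gained most with the block at chr4:46800045-47796541, with the GABA receptor genes GABRA4 and GABRB1, at -0.151 and 0.46. With shA1 that block went from -0.257 to -0.00516, percentile 76.1 of 635 blocks, the lowest percentile of the 5 rises.

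The largest decrease of IGFBP7, with a B region without protein-coding gene starts at chr4:63999836-64999368, 6.6 Mb away, was from -0.18 to -1.18 without shA1 and from -0.184 to -0.484 with it, percentile 1.5 of 635 blocks. For IGFBP2/IGFBP5 the block at chr2:211800215-212800003 went from -1.48 to -2.47 and from -1.64 to -2.15, over 15 pairs and at percentile 3.54. For IGFBP4 the block at chr17:35001424-35998296, which holds ACACA and LHX1, went from -0.749 to -1.57 and from -0.758 to -1.49, percentile 1.06. For IGFBP6 the block at chr12:63206024-64199156 went from -0.778 to -1.56 and from -0.78 to -1.26, with 13 pairs measured and at percentile 2.35. All 5 falling blocks were in B in Grow, a map in which 5699 of the 13567 kept bins were A. Of the rising blocks, those of IGFBP1/IGFBP3 and IGFBP4 were also in B, and the others in A.

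The wider IGF pathway was counted for its ligands, receptors, proteases and adaptors. Of 18 listed genes 16 were in kept bins, and IGFALS and SHC1 were not. IGF2 and INS share a bin and its value. Contact with distal B bins fell in 6 and rose in 0 of the 16 in OIS minus Grow, with a median of -0.125, where 27% of all bins were called as falls and 4.57% as rises. It ran from -0.471 at ADAM12, a protease of IGFBP3 and IGFBP5, to 0.165 at GRB14, an adaptor of the insulin receptor. The gene for the ligand IGF1, on the chromosome of IGFBP6, changed by -0.191, and IRS1, the adaptor on the chromosome of IGFBP2 and IGFBP5, by -0.251. GRB10 on chromosome 7 changed by -0.173 and GRB2 on chromosome 17 by 0.107. Among 13 relatives that share the IGFBP domain 12 were measured and HTRA3 was not. Their median was -0.15, with 4 called falls and 1 called rise, from -0.416 at CCN3 to 0.228 at CCN1, secreted matrix-associated proteins. With shA1 the relatives had 2 falls and 2 rises, and the IGF pathway list 7 falls and 1 rise, against 23.9% of all bins called as falls and 6.21% as rises. Those 7 falls count IGF2 and INS separately, at -0.378 in their shared bin. CRIM1, on chromosome 2, had 0.0296.

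A member and a pathway gene on the same chromosome could be read as a pair. IGFBP2/IGFBP5 and IRS1, 10.2 Mb apart, had a mean of 0.0552 in Grow and 0.239 in OIS over the 3 by 3 bins around them, and of -0.00401 in Grow-shA1 and 0.341 in OIS-shA1, with all 9 pairs measured. The OIS map was the higher in both. IGFBP1/IGFBP3 and GRB10, 5 Mb apart, had 0.127 and 0.154 without shA1 and -0.104 and -0.0399 with it. IGFBP4 and GRB2 had 0.311 and 0.353 without shA1 and 0.486 and 0.132 with it, with 8 of 9 pairs in all 4 maps. Each of these means covers the pairs its own map lists. The central pair had no value in OIS and was 0.502 in Grow, so those means rest on different pairs. The pairs of IGFBP6 with IGF1, and of IGFBP2/IGFBP5 with GRB14 and CRIM1, had at most 2 of 9 pairs in all 4 maps and are not described.

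The gene bins were GC-rich for their chromosomes and also rich in genes, with 2 to 7 protein-coding starts at percentiles from 78.7 to 96.9, and they were not compared with other gene-bearing bins in composition. Their GC content was 44.9% at IGFBP1/IGFBP3, 47.4% at IGFBP2/IGFBP5, 48.8% at IGFBP4, 48% at IGFBP6 and 42.3% at IGFBP7, at percentiles from 70.7 (IGFBP4) to 94.9 (IGFBP2/IGFBP5) of their chromosomes. The IGFBP7 bin was the most AT-rich of the 5 and still at percentile 94.4 of chromosome 4 for GC. The letters AATT, the AT-rich kind of site that HMGA1 prefers, occurred 6.84 times per kb in the IGFBP7 bin and between 4.53 and 6.04 times in the others. For their chromosomes the gene bins were poor in AATT, at percentiles from 3.51 (IGFBP2/IGFBP5) to 31.6 (IGFBP4), with IGFBP7 at 6.74. The 5 bins left of IGFBP7 had 41.5% GC and 7.44 AATT per kb, and the 5 to its right 38.2% and 8.27. The medians of chromosome 4 were 37.2% and 9.03.

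By their distal contact with A and with B bins in the 4 maps (8 values), each gene bin had its nearest gene bins elsewhere on the chromosome. The closest to IGFBP7 among 359 was the bin of PCDH18, a protocadherin gene, at a Euclidean distance of 0.257 score units. For IGFBP1/IGFBP3 it was that of VKORC1L1 at 0.32, for IGFBP2/IGFBP5 that of PPP1CB at 0.212, for IGFBP6 a bin that holds LRP1 at 0.286, and for IGFBP4 a bin that holds CD300LG at 0.152. The bins compared share their maps and their chromosome, and the measure of likeness uses no function.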

How the data were processed

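Hi-C of IMR90 cells was analysed from 4 deposited maps and a bin list. The authors cut chromatin with HindIII, aligned reads to hg19 with HiC-Pro (named in the submitters' processing notes), filtered out artefacts and PCR duplicates, summed contacts over bins of about 200 kb, and applied iterative correction and then a correction for distance. The value deposited by the authors is a score per pair of bins of 1 chromosome. The bin list gives other values, the deposited start and end of each bin in base pairs. The files hold no read counts, so no counting error can be given, and the share of pairs listed stands in for depth.

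Bins were kept where at least 50% of their pairs were listed in each map. Means were taken over pairs listed in all 4 maps, except the 3 by 3 means of a member with a pathway gene, which cover the pairs each map lists. The compartment score was the loading on the first principal component of a chromosome's correlation matrix, with unlisted pairs at 0, scaled by the square root of the number of kept bins and turned toward protein-coding gene starts (GENCODE, on GRCh37). Percentiles are among the kept bins of the same chromosome unless stated. The comparisons were OIS minus Grow, OIS-shA1 minus Grow-shA1, OIS-shA1 minus OIS and Grow-shA1 minus Grow. The genes named are the 7 members, neighbours within 5 bins, 2 lists of pathway genes (18 of the IGF pathway and 13 relatives with the IGFBP domain; named where on a member's chromosome, or highest or lowest in contact with B bins), the partner blocks with the largest rise and fall, and the nearest bins. The members and lists were chosen with earlier results of these data known. Because the 2 samples of each shA1 condition are pooled, no spread between replicates could be given. The measures were tested on simulated maps with planted changes. Python 3.11.15, numpy 2.4.6, pandas 2.3.3, scipy 1.17.1 and matplotlib 3.10.9 were used. Alternatives changed the treatment of scores, pairs, distance, bins, compartments and window size. Among the alternatives, IGFBP4 at the bin to its right, bins between A and B neighbours, and the bins beside IGFBP7 were chosen after seeing the data. No column of values per sample was left unused (0 columns).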

Additional observations from a re-analysis of the deposited data

Results flagged for a closer look

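In 3 measures of 1 gene bin each, the change from Grow to OIS and the change from Grow-shA1 to OIS-shA1 had opposite signs and differed by at least 0.2. None of these differences was tested, since there is 1 map per condition. Over all bins, whatever the signs of the changes, the difference rose by at least 0.2 in 23.7% for local contact. It did so in 6.3% for contact with distal B bins, and fell by at least 0.2 in 6.55% for insulation. The IGFBP7 difference in local contact was thus ordinary in size, at percentile 79.9 of chromosome 4. Local contact of the IGFBP7 bin changed by -0.142 without shA1 and by 0.127 with it, a difference of 0.269. Averaged over 3 bins its changes were -0.226 and -0.209, both below 0. Contact of the IGFBP4 bin with distal B bins changed by -0.183 and by 0.0242, a difference of 0.207. With unlisted pairs as 0 they were 0.278 and 0.23, both above 0. Insulation at the IGFBP4 bin changed by 0.13 and by -0.105, a difference of -0.234. In the bin to the right of the IGFBP4 bin, which holds most of the gene, the insulation changes were 0.289 and 0.0987, both above 0.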

How the results depend on the processing

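The medians over the 5 gene bins moved by less than the SD over those bins in 207 of 216 values under alternatives. That SD is taken over 5 unlike bins, so a median could change sign and still count among the 207. The 9 others were the following. With scores divided by the SD at the same distance, the median change in OIS minus Grow was 0.0359 for local contact, -0.0382 for distal contact with A bins and 0.173 for distal contact with B bins. With unlisted pairs as 0, the median distal change in OIS minus Grow was 0.119. With a common centring per distance, the median window change in OIS minus Grow was 0.185. For local contact in OIS-shA1 minus Grow-shA1 the median was -0.114 to 5 Mb and -0.0614 with IGFBP4 at the bin to its right, an alternative chosen after seeing the data. For Grow-shA1 minus Grow it was 0.0251 for local contact averaged over 3 bins and 0.039 for the compartment score from a component per arm. Of 976 values for single gene bins 921 moved by less than the SD over the chromosome and 52 by more, and 3 called changes reversed: local contact at IGFBP1/IGFBP3 to 5 Mb (-0.126), its contact with distal B bins with unlisted pairs as 0 (0.0563), and the compartment score at IGFBP4 in the bin to the right (0.128). A change could lose its call and still be among the 921. Local contact at IGFBP1/IGFBP3 in OIS minus Grow did so, at 0.0925 with scores divided by the SD at the same distance, against 0.211. The insulation change at the IGFBP7 bin ran from -1.11 to -0.624 without shA1 and from -1.4 to -0.509 with it, and was -0.603 and -0.613 in the bin to the left. The causes were not tested. Other coding transcripts of the members start in the same bins, so that alternative gave no new value, and unlisted pairs are at 0 in the compartment score already. No paired analysis was possible because the 2 samples of each shA1 condition were pooled into 1 map by the authors. Bins of 200 kb cannot separate IGFBP1 from IGFBP3 or IGFBP2 from IGFBP5, and differences across data sets cannot be told apart from the hairpin.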
